A study of Homo sapiens with 8 samples.

Results

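The genes described here are 10 regulators of the G1 phase of the cell cycle. They are the D-type cyclins CCND1, CCND2 and CCND3, the kinases CDK2, CDK4 and CDK6, the CDK inhibitors CDKN1A (p21), CDKN1B (p27) and CDKN2D (p19INK4D), and the transcription factor E2F1. Their regions were chosen by position, as every RUNX1 CUT&RUN peak lying over a gene or within 20 kb of either gene end on hg38. This gave 51 regions of the 33478 in the whole series, at 10 of 20037 protein-coding genes. HEL cells, a human erythroleukemia line, had been transduced with a vector for an HA-tagged RUNX1 and grown under 2 µg/ml puromycin, and an anti-HA antibody directed the nuclease that released the bound DNA. Peak lists were used from cells with RUNX1-4D, with RUNX1-4A and with WT RUNX1, from 2 biological replicates each. By the usual naming of such mutants, 4D has aspartate in place of phosphorylated residues and mimics phosphorylation, while alanine in 4A prevents it. An empty vector line, also in 2 replicates and also puromycin-selected, served as the background in peak calling. The tag reports the transduced protein alone, so RUNX1 of the host cells was not measured, and the labels do not say whether the lines were clones. Peak lists hold no expression values, so the HEL label could not be checked against marker genes.

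Progress through G1 depends on cyclin D bound to CDK4 or CDK6, which phosphorylates the retinoblastoma protein, and then on CDK2 with cyclin E. E2F1 is released by that phosphorylation and switches on genes of DNA replication. The INK4 inhibitors, among them CDKN2D, block CDK4 and CDK6, while CDKN1A and CDKN1B mainly restrain CDK2 complexes. RUNX1 is known to act on the G1 to S transition of blood cells, D-type cyclins and CDK6 can bind it, and CDK phosphorylation is known to alter its stability and activity. In megakaryocytes, which replicate DNA without dividing, cyclin D3 is the D-type cyclin linked to polyploidy, and CDKN2D has been described as a RUNX1 target linked to the arrest of these endomitotic cycles.

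The 6 lists differ in length by replicate number. The replicate 1 lists held 5358 (4D), 6266 (4A) and 6764 (WT) peaks and the replicate 2 lists 21122, 24251 and 25911. Read depth is unknown for these lists. The absence of a peak thus means that none was called in that list, which differs from being unbound. Each peak has the authors' fold enrichment over background and −log10 q, the size of the corrected p-value. Both values describe peaks within a list. Where they are ordered across lists below, the order is a description and not a measure of change, since the lists differ in length. Within each list, peaks were also ranked by −log10 q in percentiles, and a region's mean percentile over the 6 lists, with 0 where it was not called, gave its overall rank.

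Sequence around start sites is shown for the windows where these regions were strongest, with the promoter of CDKN1A as the window called in the fewest libraries among those shown. RefSeq promoter windows (GRCh38.p14, 250 bases before to 50 after a start site, in the direction of transcription) were at hand for 7 of the 10 genes, in 10 windows. Capitals mark TGTGG or its reverse complement CCACA, the first 5 letters of TGTGGT, a form of the RUNX core. Other forms of the core, such as TGCGGT, were neither searched nor marked. KRI1 and TIGAR are the neighbours of CDKN2D and CCND2 whose start sites held the strongest regions of those windows.
CDKN2D, chr19:10568930-10569229, minus strand: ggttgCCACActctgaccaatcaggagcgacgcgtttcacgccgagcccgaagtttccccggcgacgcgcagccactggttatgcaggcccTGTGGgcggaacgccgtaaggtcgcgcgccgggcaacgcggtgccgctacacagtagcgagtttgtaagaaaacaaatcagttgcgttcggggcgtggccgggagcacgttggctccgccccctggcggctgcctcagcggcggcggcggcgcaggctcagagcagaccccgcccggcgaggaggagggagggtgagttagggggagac
KRI1, chr19:10565961-10566260, minus strand: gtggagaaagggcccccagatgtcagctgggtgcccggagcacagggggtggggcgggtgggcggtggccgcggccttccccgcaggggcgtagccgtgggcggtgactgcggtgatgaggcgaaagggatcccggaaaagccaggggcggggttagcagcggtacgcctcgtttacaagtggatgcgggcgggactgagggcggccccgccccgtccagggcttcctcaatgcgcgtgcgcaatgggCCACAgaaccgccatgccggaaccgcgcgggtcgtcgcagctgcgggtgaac
CCND3, chr6:41939156-41939455, minus strand: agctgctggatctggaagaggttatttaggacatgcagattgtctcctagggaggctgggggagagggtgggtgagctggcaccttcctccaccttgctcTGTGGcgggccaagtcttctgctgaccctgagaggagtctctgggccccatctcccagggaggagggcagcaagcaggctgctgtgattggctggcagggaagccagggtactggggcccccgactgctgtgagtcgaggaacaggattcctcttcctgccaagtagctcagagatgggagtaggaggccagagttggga
E2F1, chr20:33686336-33686635, minus strand: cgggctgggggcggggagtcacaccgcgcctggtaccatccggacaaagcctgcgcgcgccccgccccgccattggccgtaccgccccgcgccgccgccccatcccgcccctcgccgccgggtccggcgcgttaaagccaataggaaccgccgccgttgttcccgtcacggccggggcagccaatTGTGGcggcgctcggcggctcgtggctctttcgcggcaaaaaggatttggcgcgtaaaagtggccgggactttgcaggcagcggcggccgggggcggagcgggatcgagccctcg
TIGAR, chr12:4320963-4321262, plus strand: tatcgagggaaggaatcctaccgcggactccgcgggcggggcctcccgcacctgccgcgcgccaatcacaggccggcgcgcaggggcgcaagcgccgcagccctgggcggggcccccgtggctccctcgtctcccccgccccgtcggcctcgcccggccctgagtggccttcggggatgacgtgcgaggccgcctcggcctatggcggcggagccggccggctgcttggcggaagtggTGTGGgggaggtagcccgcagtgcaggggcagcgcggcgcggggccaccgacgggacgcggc
CDKN1A, chr6:36678464-36678763, plus strand: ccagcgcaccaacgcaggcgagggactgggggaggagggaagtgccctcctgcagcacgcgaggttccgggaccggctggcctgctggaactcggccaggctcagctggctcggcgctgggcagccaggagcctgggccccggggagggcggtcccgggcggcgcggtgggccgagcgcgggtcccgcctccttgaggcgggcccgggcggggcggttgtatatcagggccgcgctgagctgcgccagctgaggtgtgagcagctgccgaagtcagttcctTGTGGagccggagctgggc

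The letters TGTGGT, the only form of the RUNX core searched, were looked for on both strands. They were in 0 of the 10 promoter windows of these genes, against 11.3% of all 22199 promoter windows of protein-coding genes. The shorter TGTGG, searched after that result, was in 6 of the 10, against 48.9% of all windows. It overlaps TGTGGT by construction. The GATA letters AGATAA were in 0 of the 10 windows, against 7.91% of all. The ETS letters CCGGAA were in 2, the CDKN1A window and 1 of the 3 CCND3 windows, against 21.2% of all. Regions called in all 6 libraries overlapped 3 of the 10 windows, those of CDKN2D and E2F1 and 1 of CCND3, against 7.90% of all windows. The 3 windows, and also those of KRI1, TIGAR, NECAB3 and RAB5B described below, each hold TGTGG or CCACA. The same letters are in 1 CDK6 window and 1 CCND3 window that no region overlapped in any library. Over all genes, TGTGGT was in 13.1% of windows overlapped by a region called in all 6 libraries. It was in 11.9% of windows that no region overlapped. A match of letters is a description of the window and not a site, and most region sequence lay outside these windows.

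A gene was called in a line when each replicate had a peak within 20 kb. By this rule 6 of 10 genes were called in 4D, 6 in 4A and 8 in WT, against 28.6% (4D), 31.8% (4A) and 35.4% (WT) of all protein-coding genes. These counts depended on list length and on how peaks were assigned, and the shares of all genes fell too. With every list at the length of the shortest, the counts were 3 (4D), 5 (4A) and 6 (WT), against 19.8%, 20.9% and 20.9% of all genes. With each peak given to its nearest gene end they were 5, 4 and 6, against 17.7%, 19.8% and 22.0%. With the lists as deposited, CCND2, CCND3, CDK2, CDKN2D and E2F1 were called in every line. These 5 also had at least 1 region called in all 6 libraries, against 21.0% of all protein-coding genes. With each peak given to its nearest gene end, 4 genes had such a region, since the only CDK2 region lay nearest to RAB5B. The share of all genes was not computed for that count. The calls of CDK4, CDK6 and CDKN1B differed between lines. Neither CCND1 nor CDKN1A had a peak in any replicate 1 list. In the longer replicate 2 lists 9 genes were called in 4D and 10 each in 4A and WT, against 61.8% (4D), 65.7% (4A) and 66.0% (WT) of all genes. In the replicate 1 lists the counts were 6 (4D), 6 (4A) and 8 (WT), against 29.0%, 32.2% and 35.8%. The counts of G1 genes lay above the background share in each library, and since the genes were chosen with earlier results known no test was made. The window of a gene, with 20 kb on either side, had a median of 50.9 kb for the 10 genes, against 64.1 kb for all protein-coding genes.

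**Figure D1:**
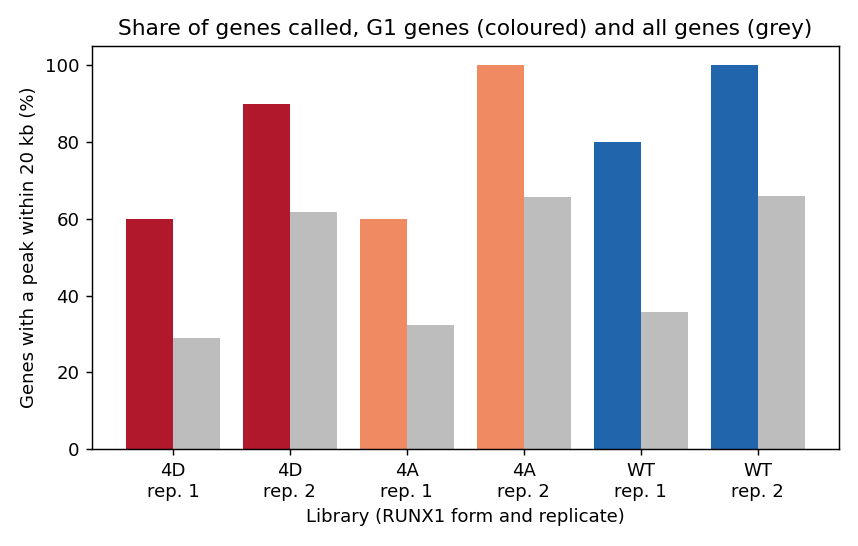
Percent of genes with a peak within 20 kb in each library (x axis: RUNX1 form and replicate), for the 10 G1 genes (coloured bars) and all 20037 protein-coding genes (grey bars). In each library the coloured bar is the taller one, and both rise with the longer replicate 2 lists.

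Of the 51 regions, 11 were called in all 6 libraries, or 21.6%, against 9.84% of all regions. Another 32 were called in replicate 2 lists alone, or 62.7%, against 72.6% of all regions. Each of the 19 regions with a replicate 1 call was also called in all 3 replicate 2 lists. Over the whole series 84.9% of regions with a replicate 1 call were. Summits lay within 1 kb of an end of a protein-coding gene for 18 of the 51, or 35.3%, against 25.8% of all regions. In 31 regions the nearest gene end was that of the G1 gene itself, and among the 11 called in all libraries in 6. The other 5 lay nearest to the neighbours TIGAR, RAB5B, KRI1, ATG4D and NECAB3. The outermost region inside the limit lay 19.7 kb from CDK4, and the nearest beyond it lay 20.5 kb from CDKN1B and was called in 4A replicate 2 alone.

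**Figure D2:**
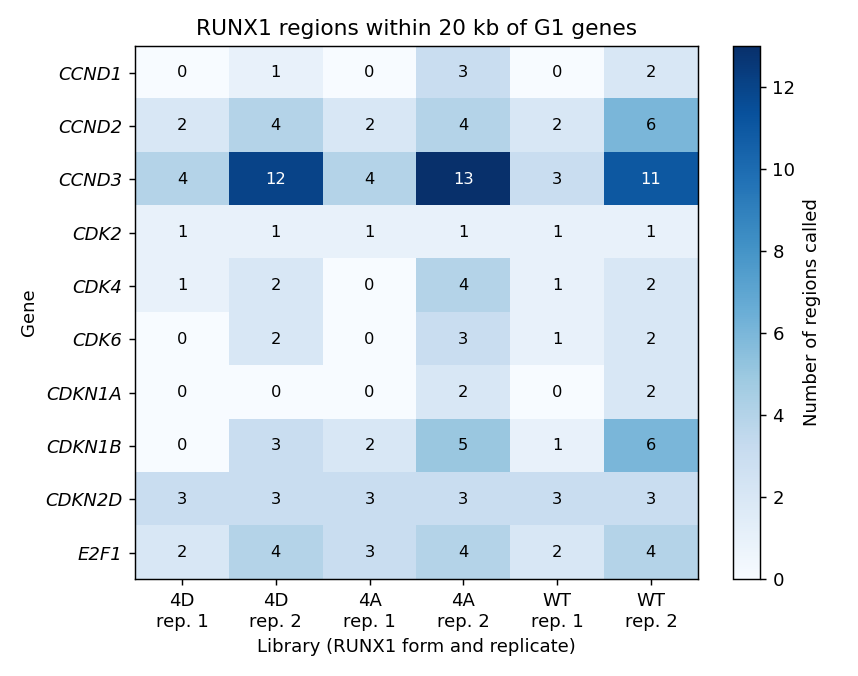
Number of regions called within 20 kb of each gene (rows) in each library (columns, RUNX1 form and replicate), with darker blue for more regions. CCND3 holds most regions in each library save for equal counts of 3 with CDKN2D in WT replicate 1, and CCND1 and CDKN1A are at 0 in each replicate 1 list.

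Among the cyclins, CCND3 had 15 regions, and 0.349% of all protein-coding genes had as many. The gene is 115 kb long (chromosome 6, 41934933 to 42050035, minus strand). Its window held 9.67 regions per 100 kb, against a median of 1.88 over all protein-coding genes and 7.68 over these G1 genes. CDKN1B (15.6) and CCND2 (9.78) had higher values. Around the 2 downstream CCND3 start sites lay 4 of its 15 regions, among them the 3 called in each library. These were 41935910 to 41936792, 41937606 to 41938870 and 41939070 to 41941377. The last had its summit 0.426 kb before the start site whose sequence is shown above and ranked highest of the 15. The 6 lists gave it a −log10 q of 30.5 and 74.7 in 4D, 17.7 and 112 in 4A, and 26.0 and 84.8 in WT (replicates 1 and 2). The highest value was that of 4D within replicate 1 and that of 4A within replicate 2. Within each line the replicate 2 value was the higher one. Fold enrichments of this region ranged from 9.55 to 20.9. The middle region of the 3 had its lowest −log10 q, 3.82, in 4D replicate 1, with 66.6 in 4D replicate 2, 18.3 and 85.8 in 4A and 18.2 and 95.8 in WT.

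Another 9 CCND3 regions lay inside the gene between 1.89 and 38.4 kb downstream of its first start site. Of these 9, 7 were called in replicate 2 lists alone. The highest in mean rank (42027459 to 42027913) had a −log10 q of 19.7 in 4D replicate 2, 4.16 and 19.6 in 4A, and 45.3 in WT replicate 2, with no call in 4D or WT replicate 1. Its neighbour (42028074 to 42028862) was called in 4D replicate 1 instead, with a −log10 q of 2.23. The promoter window of the first start site was overlapped by no region in any library. A region at 42050543 to 42050890, 0.608 kb outside the gene and 0.119 kb from an end of TAF8, was called in 4A replicate 2 and WT replicate 2.

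CCND2 (chromosome 12, 4273762 to 4305353), the cyclin D2 gene, had 7 regions, with 2 found in each library. The one beside the gene (4271900 to 4273731) had its summit 1.03 kb outside the lower end. It had a −log10 q of 5.58 and 21.5 in 4D, 5.76 and 41.0 in 4A, and 14.3 and 37.2 in WT. WT was the highest of the replicate 1 values and 4A of the replicate 2 values. A stronger region lay 15.7 kb beyond the upper end of CCND2, 0.147 kb from the start of TIGAR, a phosphatase of sugar metabolism induced by p53 (4320595 to 4321526). There the −log10 q reached 30.6 and 109 in 4D, 40.3 and 122 in 4A, and 49.5 and 119 in WT, and the region ranked 148 of 33478. The other 5 regions of CCND2 were called in replicate 2 lists alone, 3 of them in WT only.

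CCND1 (chromosome 11, 69641156 to 69654474), the cyclin D1 gene, had 4 regions and none with a replicate 1 call. Highest in mean rank was a region inside the gene (69643245 to 69643514), with a −log10 q of 8.37 in 4A replicate 2 and 5.32 in WT replicate 2. A region 3.85 kb outside the gene was called in 4D replicate 2 (5.33) and WT replicate 2 (5.43). A region 15.9 kb outside the gene, called in 4A replicate 2 alone, stood at the 53.8 percentile of that list, the highest of any CCND1 peak in its own list. The D-type cyclins thus ranged from 3 (CCND3) and 2 (CCND2) regions called in all libraries to 0 (CCND1).

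**Figure D3:**
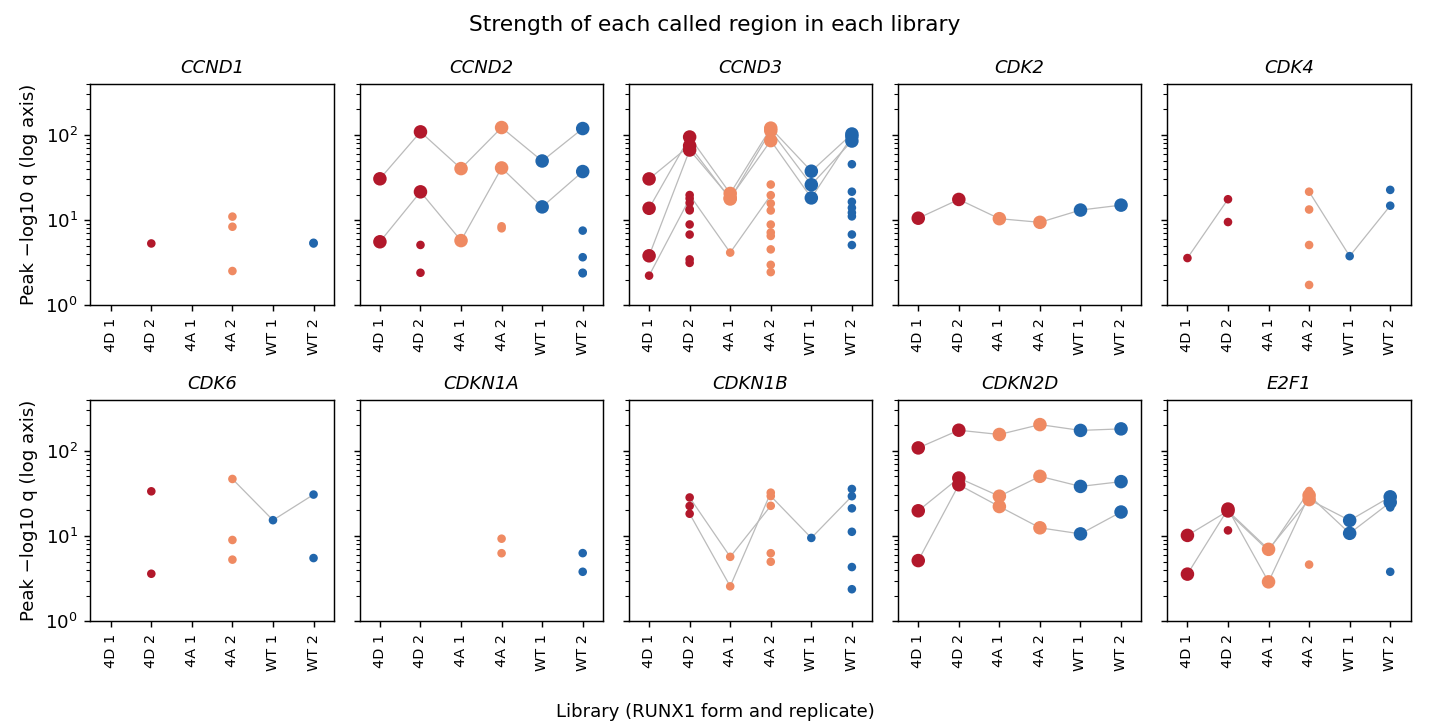
Peak −log10 q (y axis, log scale) of each region within 20 kb of the 10 genes in each library (x axis: RUNX1 form and replicate), with large points for regions called in all 6 libraries and lines joining the values of 1 region in adjacent libraries. The CDKN2D region at the KRI1 start stays between 108 and 203, while CDK2 lies between 9.43 and 17.5.

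Among the kinases, CDK2 was the one called in all libraries, and by a single region. It lay beside the gene (chromosome 12, 55966830 to 55972789) at 55972893 to 55974088, with the summit 1.01 kb outside CDK2 and 0.154 kb from a start site of RAB5B, a small GTPase of endosomes. The −log10 q was 10.5 and 17.5 in 4D, 10.4 and 9.43 in 4A, and 13.1 and 15.0 in WT. Within each replicate number 4A was the lowest, while WT was the highest in replicate 1 and 4D in replicate 2. Only in 4A was the replicate 2 value the lower one. The fold enrichment of this region was higher in replicate 1 of every line, with 8.76 and 7.51 in 4D, 8.73 and 4.59 in 4A, and 9.42 and 6.93 in WT. No other region lay within 20 kb of CDK2 in any list.

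At CDK4 (chromosome 12, 57747727 to 57752310, minus strand) the leading region covered the start site, with the summit 0.067 kb before it (57752091 to 57752697). In −log10 q it reached 3.59 and 17.6 in 4D, 21.6 in 4A replicate 2, and 3.78 and 14.8 in WT, with no call in 4A replicate 1. The replicate 1 values were low for their lists, whose median −log10 q was 7.60 (4D) and 10.5 (WT). With lists at equal lengths within each replicate number, the WT replicate 1 peak was no longer kept and CDK4 was called in 4D alone.

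CDK6 (chromosome 7, 92604921 to 92836573, minus strand), at 232 kb the longest of the 10 genes, had 3 regions, all inside it. The leading one (92642043 to 92642598) lay 192 kb downstream of the nearer start site and 37.2 kb from the lower gene end. Its −log10 q was 33.5 in 4D replicate 2, 46.8 in 4A replicate 2, and 15.4 and 30.7 in WT. Among the replicate 2 lists 4A was highest, and the calls differed in replicate 1, where it was found in WT alone. Neither of the 2 CDK6 promoter windows was overlapped by a region in any library.

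Among the inhibitors, CDKN2D (chromosome 19, 10566460 to 10568979, minus strand) had 3 regions, each called in all 6 libraries, and 0.744% of all protein-coding genes had as many such regions. The strongest (10565779 to 10567407) ranked 7 of 33478. It overlapped the 3′ part of CDKN2D, but its summit lay 0.343 kb beyond the 3′ end of the gene and 0.107 kb from the start site of KRI1, a ribosome biogenesis gene on the same strand. Fold enrichments there were 31.5 and 19.7 in 4D, 34.4 and 18.3 in 4A, and 37.1 and 22.9 in WT. Replicate 1 was higher in every line. Within each replicate number WT was the highest, where its list was also the longest. The −log10 q of this region was 108 and 175 in 4D, 156 and 203 in 4A, and 174 and 181 in WT.

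The second CDKN2D region (10568008 to 10569384) covered the gene's own start site, with the summit 0.049 kb before it. The 6 lists gave it a −log10 q of 19.8 and 48.0 in 4D, 29.3 and 50.2 in 4A, and 38.2 and 43.5 in WT, and its mean percentile was 90.4. The 4D replicate 1 value was the lowest of the 6. WT was the highest within replicate 1 and the lowest within replicate 2. The last of the 3 (10553750 to 10554422) lay inside KRI1 12.3 kb beyond CDKN2D and 0.750 kb from an end of ATG4D, an autophagy protease. It had a −log10 q of 5.15 and 40.0 in 4D, 22.2 and 12.5 in 4A, and 10.6 and 19.1 in WT. Here 4D held both the lowest and the highest value.

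CDKN1B (chromosome 12, 12717368 to 12722369, plus strand) had 7 regions and none called in all libraries. The region before its start site (12716785 to 12717338, summit 0.126 kb before the start) overlaps an end of GPR19, a receptor gene. That end lies 0.004 kb from the summit. In −log10 q it reached 18.3 in 4D replicate 2, 2.57 and 32.3 in 4A, and 21.1 in WT replicate 2. A second region 1.75 kb before the start (12715327 to 12716017) had the same calls, with 28.4 in 4D, 5.70 and 22.6 in 4A, and 35.7 in WT. By rank the leading region (12724435 to 12726135) lay 3.47 kb beyond the 3′ end, 0.083 kb from an end of APOLD1, an endothelial early response gene. There the −log10 q was 22.5 in 4D replicate 2, 29.5 in 4A replicate 2, and 9.51 and 29.4 in WT. CDKN1B was thus called in 4A through the regions before its start and in WT through the region at APOLD1. In 4D it had 3 regions in replicate 2 and 0 in replicate 1.

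CDKN1A (chromosome 6, 36676463 to 36687332, plus strand), the p53 target p21, was the least called of the 10 genes, with regions in 2 libraries. A region over the start site shown above (36678529 to 36678792) was called in 4A replicate 2 alone, with a −log10 q of 9.31 and a fold enrichment of 4.79. The leading region by mean rank (36700769 to 36701022) lay 13.6 kb beyond the 3′ end inside RAB44, with a −log10 q of 6.29 in 4A replicate 2 and 6.31 in WT replicate 2. No 4D library had a peak in the window, and the 4D replicate 2 list was the shortest of the replicate 2 lists.

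**Figure D4:**
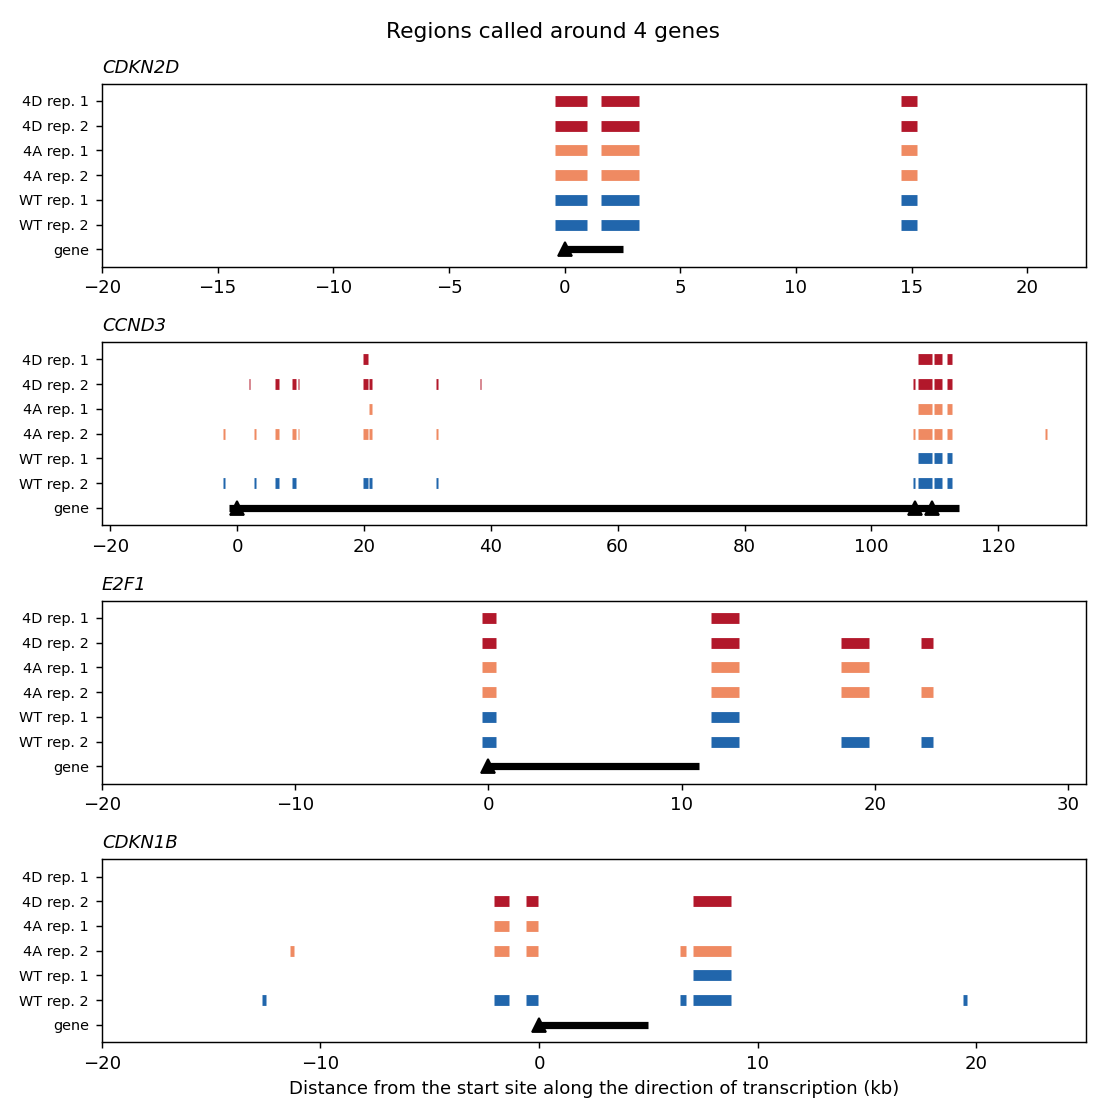
Regions called around CDKN2D, CCND3, E2F1 and CDKN1B in each library (rows, coloured bars drawn over the full extent of the merged region) by distance from the start site in kb, with transcription to the right. The black bar is the gene and triangles are its start sites in the promoter table. The CDKN2D regions are called in each row, while CDKN1B has bars at its start site in both 4A rows and in the replicate 2 rows of 4D and WT.

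E2F1 (chromosome 20, 33675477 to 33686385, minus strand), the transcription factor downstream of the cyclin D kinases, had 4 regions, with 2 found in each library. The leading one covered the start site (33685992 to 33686714, summit 0.141 kb before it). Its −log10 q was 10.2 and 19.7 in 4D, 6.98 and 26.8 in 4A, and 15.3 and 28.9 in WT. WT was the highest within each replicate number, where its list was also the longest, and the ranges of the lines overlapped. These values do not measure a change between lines. The other lay 1.08 kb beyond the 3′ end (33673384 to 33674867), 0.951 kb from an end of NECAB3 and over a NECAB3 start site. The 6 lists gave it a −log10 q of 3.57 and 20.7 in 4D, 2.90 and 30.0 in 4A, and 10.8 and 24.9 in WT. Another region, inside NECAB3 8.59 kb from E2F1, was called in both 4A replicates (6.72 and 33.8) and in replicate 2 of 4D (19.0) and WT (21.7).

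The series design sets the phosphosite forms against WT. Between 4D and WT, 0 of the 51 regions were called in both 4D libraries and no WT library, against 0.114% of all regions, and 0 in the opposite direction, against 0.472%. Between 4A and WT, 0 were called in both 4A libraries and no WT library, against 0.206% of all regions, and 0 the other way, against 0.269%. Between 4D and 4A the counts were 0 and 0, against 0.314% for 4D and not 4A and 0.669% for 4A and not 4D. Each share is small enough that a count of 0 among 51 regions in that comparison lies near the background. With 2 libraries against 2, the smallest p an exact two-sided permutation test allows is 0.333, and none was run on any region.

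Gene calls that differed between lines rested on the replicate 1 lists. CDK4 lacked a peak in 4A replicate 1, CDK6 in 4D and 4A replicate 1, and CDKN1B in 4D replicate 1, and each had peaks in all replicate 2 lists. Within replicate 1, 1 region was called in 4D and not WT and 2 in WT and not 4D, beside 12 called in both. Between 4A and WT in replicate 1 the counts were 4 and 3, beside 11 in both. Within replicate 2, 4 were called in 4D and not WT and 11 in WT and not 4D, beside 28 in both, and between 4A and WT 10 and 7, beside 32 in both. The lists also differ in length, 4D being the shortest. With lists at equal lengths within each replicate number, 13 regions were called in replicate 1 of 4D, 4A and WT alike, and 32 (4D), 38 (4A) and 32 (WT) in replicate 2. The genes called in the replicate 1 lists were then 6 (4D), 6 (4A) and 7 (WT).

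Other genes of the G1 and S phase machinery were taken as a list of 51 genes, from cyclin E to the replication licensing factors. Of these, 14 were called in 4D, 19 in 4A and 21 in WT, or 27.5%, 37.3% and 41.2%. These shares lay near the background of all protein-coding genes given above. In the list, 11 of the 51 genes had a region called in all 6 libraries, a share near the 21.0% of all protein-coding genes. By rank these were FBXO31, CDC6, MNAT1, MCM6, MCM3, E2F3, LIN37, LIN52, MCM2, CDC25A and ORC1. The FBXO31 region (chromosome 16, 87391528 to 87392632), at an adaptor for cyclin D1 degradation, had a −log10 q of 6.29 and 50.9 in 4D, 6.64 and 68.9 in 4A, and 18.2 and 64.0 in WT. At MNAT1, an assembly factor of the CDK-activating kinase, the values were 6.09 and 21.8 in 4D, 11.6 and 29.6 in 4A, and 17.4 and 29.4 in WT. At CDC25A, the phosphatase that activates CDK2, they were 1.70 and 24.2 in 4D, 5.29 and 30.1 in 4A, and 5.32 and 21.3 in WT. The only such regions of MCM6, LIN37, MCM2 and ORC1 lay outside those genes and nearest to ends of LCT, IGFLR1, TPRA1 and CC2D1B. CDC6, a loader of the replicative helicase, had 3. Its highest in rank lay nearest to RARA, and another (chromosome 17, 40287565 to 40288099) overlapped the lower end of CDC6 itself, with a mean percentile of 62.7. No region was found in any library within 20 kb of CCNA2, CDK1, CDKN2A, CDKN2B, E2F6 or LIN9, 6 of the 51 genes. Over all protein-coding genes, 72.3% had at least 1 region within 20 kb, so empty windows are common.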

How the data were processed

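The submitters' processing notes name MACS2 2.2.7.1, Bowtie2 2.4.2, cutadapt 3.4, deepTools 3.5.1 and Picard 2.25.6, with the build hg38. For read filters and for pooling of the empty vector libraries, nothing is given in the sources used here. Each library has 1 peak list deposited by the authors, and each peak has a score that the values show to be a rounded multiple of its −log10 q, a fold enrichment ratio over background, and the −log10 of its p-value and q-value. Depth is unknown. The lowest −log10 q of a list was 1.30 to 1.41.

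The peaks of autosomes and sex chromosomes were merged across the 6 lists wherever they overlapped by at least 1 bp, in Python 3.11.15 with pandas 2.3.3. Coordinates are 1-based. Gene positions came from a RefSeq table (GRCh38.p14) without strand, and strand and start sites from its promoter table, matched for CCND3, CDK4, CDK6, CDKN1A, CDKN1B, CDKN2D and E2F1. Gene assignment was tested on simulated data with known positions. Named regions are, for each gene, the one with the highest mean percentile, and pathway genes those with a region in all 6 libraries, by the same rank. Other regions were named after their values were seen. The genes, the pathway list and the rules were chosen with earlier results of these data known. No test was made between lines, since an exact permutation test of 2 libraries against 2 cannot go below p = 0.333. The alternatives were windows of 10 kb, 50 kb and the gene with 2 kb, peaks with a −log10 q of at least 5, summit windows of 100 bp to either side, equal list lengths, single replicates and the nearest gene end.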

Additional observations from a re-analysis of the deposited data

How the results depend on the processing

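For 18 counts and shares, 189 values were recomputed under 11 settings, and 141 stayed within 1.5 times the value reported. When every list was shortened to the shortest, 3 of the 10 genes were called in 4D, 3 had a region in all libraries, and 20 regions remained near the genes, 6 of them in all libraries. The pathway counts were then 7 (4D), 7 (4A) and 8 (WT). Of all genes, 19.8% were called in 4D and 20.9% in 4A and in WT. In that setting 1 region near the 10 genes was called in 4A and not 4D, and 1 in 4A and not WT. With the gene and 2 kb, 31 regions were counted, pathway genes fell to 9 (4D) and 13 (WT), and 18.8% of all genes were called in 4D. By the nearest gene end 5 (4D), 4 (4A) and 6 (WT) of the 10 genes were called, 31 regions were counted, 6 of them in all libraries, pathway counts were 9 (4D), 11 (4A) and 10 (WT), and shares of all genes 17.7%, 19.8% and 22.0%. Keeping peaks at or above 5 in −log10 q, 8 pathway genes were called in 4D. With 50 kb, 1 region was called in 4A and not 4D and 1 in WT and not 4D. A rule added after seeing the data, the same region in both replicates, moved no value by over 1.5 times.

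With either replicate alone, the genes called ranged from 6 to 9 in 4D, 6 to 10 in 4A and 8 to 10 in WT, and those with a region in all remaining libraries from 5 to 8. Regions ranged from 19 to 51, those in all remaining libraries from 11 to 27. Pathway counts ranged from 14 to 36 (4D), 19 to 43 (4A) and 21 to 45 (WT), and shares of all genes from 29.0 to 61.8%, 32.2 to 65.7% and 35.8 to 66.0%. Regions called in 4D and not WT ranged from 1 to 4, in WT and not 4D from 2 to 11, in 4A and not WT from 4 to 10, in WT and not 4A from 3 to 7, in 4D and not 4A from 2 to 3, and in 4A and not 4D from 4 to 13. The counts of 0 between lines therefore hold for both replicates together and not for either replicate alone.

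No paired analysis was possible because the results are counts of calls with no fitted model to take the replicate number as a block. Counts within each replicate number were made and are given as descriptions.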

Other observations

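The 5 genes with no region called in all libraries within 20 kb lay at different distances from the nearest such region. It was 94.5 kb from CDK4, near CTDSP2, and 341 kb from CCND1, near MYEOV. For CDKN1A it lay 363 kb away, near FGD2, for CDK6 470 kb, near CYP51A1, and for CDKN1B 997 kb, near ETV6, a transcription factor gene of blood cells. The mean percentile of these regions ranged from 37.6 (CTDSP2) to 85.8 (FGD2).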
